A study of Mus musculus with 16 samples.

Results

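Tubb3, Dcx, Mtap2, Stmn2, Nefl, Nefm, Gap43 and Ncam1 encode proteins of the neuronal cytoskeleton and of neuronal adhesion and are widely used as markers of young neurons. They were taken by gene name from a table of 27807 genes, in which all 8 were listed (Map2 under its older symbol Mtap2), and their levels are described here over every genotype and stage measured. The study asked what mouse embryonic stem (ES) cells need Taf4 for as they differentiate. Its gene, Taf4a, encodes a component of TFIID, which binds core promoters and helps RNA polymerase II to start there. RNA-seq was performed on 16 libraries in 8 groups of 2. WT ES cells and Taf4a-/- ES cells (KO, homozygous for a Taf4a allele inactivated by deletion of exons) were profiled undifferentiated (ES) and as embryoid bodies (EBs) at 3 stages of a neuronal protocol with all-trans retinoic acid (RA). EB4 was taken before RA, EB5 after the first day with RA and EB8 later in RA, when the labels call the cells neural precursor cells. The ES cells of both genotypes were grown with leukaemia inhibitory factor on inactivated mouse embryonic fibroblasts, a feeder layer that can contribute RNA. Each genotype was represented by 2 independent lines isolated from blastocysts of heterozygous crosses. The labels give a replicate number and do not say what it marks, so p-values below measure the spread between these libraries.

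The 8 proteins build different structures of a growing neurite. Microtubules are its tracks: Tubb3 encodes the beta-tubulin found mainly in neurons, Dcx encodes doublecortin, which binds and stabilises microtubules in migrating and newly born neurons, Mtap2 encodes a microtubule-associated protein of dendrites, and Stmn2 encodes a stathmin that binds free tubulin in growth cones. Nefl and Nefm encode the light and medium neurofilament subunits, the intermediate filaments that fill axons, Gap43 encodes a membrane-associated protein of growth cones, and Ncam1 encodes an immunoglobulin-family adhesion molecule of neural cells. In the embryo this machinery is switched on as progenitors leave the cell cycle and become neurons.

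The genes lie on 7 chromosomes, and of them Nefl and Nefm are neighbours. On mm9, the build of the files, Tubb3 (ENSMUSG00000062380) spans chr8:125935324-125945915 on the plus strand, Dcx (ENSMUSG00000031285) chrX:140290385-140367854 on the minus strand, Mtap2 (ENSMUSG00000015222) chr1:66221847-66489157 on the plus strand and Stmn2 (ENSMUSG00000027500) chr3:8509527-8561604 on the plus strand. Nefl (ENSMUSG00000022055) spans chr14:68701920-68707152 on the plus strand, Nefm (ENSMUSG00000022054) chr14:68700647-68742903 on the minus strand, Gap43 (ENSMUSG00000047261) chr16:42248555-42340764 on the minus strand and Ncam1 (ENSMUSG00000039542) chr9:49310257-49607027 on the minus strand. Nefl and Nefm shared 1108 bases of exon on opposite strands, which were 32.8% of the exon length of Nefl and 19.2% of that of Nefm. The library kit does not mark strand, so reads from those bases cannot be told apart. How the count treated them is not given. The values of the pair may therefore not be independent, or may lack those reads.

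Taf4 is part of a factor that assembles at promoters, so the sequences upstream of the start sites are shown for the members found in the RefSeq table (build GRCm38.p6), which were 3 of 8: Tubb3, Dcx and Map2. Stretches from the windows of 250 bases before the start site are given 5′ to 3′ on the strand of the gene. The end of each window nearest the start lay inside the annotated gene and is not shown. It was 129 bases for Tubb3, 92 for Dcx and 56 for Map2. Composition and matches below are for the whole windows. Capitals mark letters that were searched on both strands. They were TATAAA for the TATA box of core promoters. They were also CCAAT and, for the GC box bound by Sp-family factors, GGGCGG. The E-box form used by proneural factors was searched as CAGNTG. The stretch of Tubb3 is chr8:123411303-123411423 (plus strand), that of Dcx is chrX:143933312-143933469 (minus strand) and that of Map2 is chr1:66175079-66175272 (plus strand).
Tubb3: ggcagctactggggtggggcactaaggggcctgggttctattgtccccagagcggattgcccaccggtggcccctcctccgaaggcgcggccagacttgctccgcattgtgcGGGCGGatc
Dcx: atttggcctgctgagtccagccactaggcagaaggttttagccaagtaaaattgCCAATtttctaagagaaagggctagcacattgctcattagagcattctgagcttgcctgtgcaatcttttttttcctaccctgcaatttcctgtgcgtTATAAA
Map2: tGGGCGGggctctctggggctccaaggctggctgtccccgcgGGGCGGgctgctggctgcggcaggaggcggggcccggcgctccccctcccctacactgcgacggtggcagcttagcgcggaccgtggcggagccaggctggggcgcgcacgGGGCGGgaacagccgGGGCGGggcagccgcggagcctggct
The 3 promoters were unlike each other in composition. GC content was 68.0% with 21 CG dinucleotides in the window of Tubb3, 41.6% with 3 in the window of Dcx that is shown, and 81.2% with 34 in that of Map2, beside medians of 52.4% and 6 over all 32851 windows of the table. Of the 3, TATAAA was found in the window of Dcx, 98 bases before the RefSeq start, and 12.4% of all windows held it. The same TATAAA lay 193 bases before a different RefSeq start of Dcx, so it is not a further match. GGGCGG was found in the windows of Tubb3 and Map2 and in 32.7% of all windows. CCAAT was found for Tubb3 (on the reverse strand) and Dcx and in 33.8% of all windows. Some matches lie outside the stretches shown. They are CCAAT 77 and GGGCGG 46 bases before the start of Tubb3, and GGGCGG 44 bases before that of Map2. CAGNTG, held by 44.8% of all windows, was in none of the 3. Each match is a run of letters and was not tested as a binding site.

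In the libraries, 22442118 to 40711826 reads fell in genes, and every ES library (at least 32631020) was deeper than every EB library (at most 27685306). Values are normalised read counts, in which 1 read was worth 0.715 to 1.28. A gene was tested when its mean over the 16 libraries was at least 10, which 16124 genes passed, all 8 members included. The count of Taf4a was not lower in KO: its normalised read count was 1591 to 1960 in the WT libraries and 1973 to 2400.0 in the KO libraries (log2 change 0.29 at EB8, limma adjusted p = 0.194). A count per gene does not resolve the deleted exons, so the genotypes are used as labelled. Chromosome-wide levels bear on 2 members and are given as the median over the tested genes of a chromosome of the log2 difference from the mean of the 4 libraries of a stage. Chromosome 8, which carries Tubb3, stood at 0.36 to 0.38 in WT replicate 1 during the 3 EB stages and at -0.17 to 0.08 in the other libraries. The X chromosome, which carries Dcx, stood at 0.24 to 0.54 in KO replicate 2 at all 4 stages and at 0.37 in WT ES replicate 2, against -0.35 to -0.09 elsewhere. Their part in the results was not tested.

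At EB8, all 8 genes were lower in Taf4a-/- cells than in WT, by 3.23-fold for Stmn2 to 78.8-fold for Dcx, and in none of them did a KO library reach the lower of the WT libraries. Tubb3 fell 13.8-fold, Mtap2 14.2-fold, Nefl 11.6-fold, Nefm 18.8-fold, Gap43 17.1-fold and Ncam1 4.47-fold. Each passed the limma test (moderated test on log2 of the normalised read count plus a pseudocount of 1, Benjamini-Hochberg adjusted over all tested genes, threshold 0.05), and folds are on that scale. Of all tested genes, 22.9% passed at EB8, 10.4% higher and 12.5% lower, and 33.5% were lower and 30.4% higher with no overlap between libraries. The median log2 change of the 8 genes was -3.80, beside -0.03 for all genes. Scaling by the upper quartile moved the median of all genes from -0.03 to 0.11 and the share of calls that were higher from 45.4% to 58.5% (54.4% with quantile normalisation), and all 8 genes stayed below 0 under both. In bulk libraries, fewer cells of a type and less RNA per cell cannot be told apart.

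**Figure D1:**
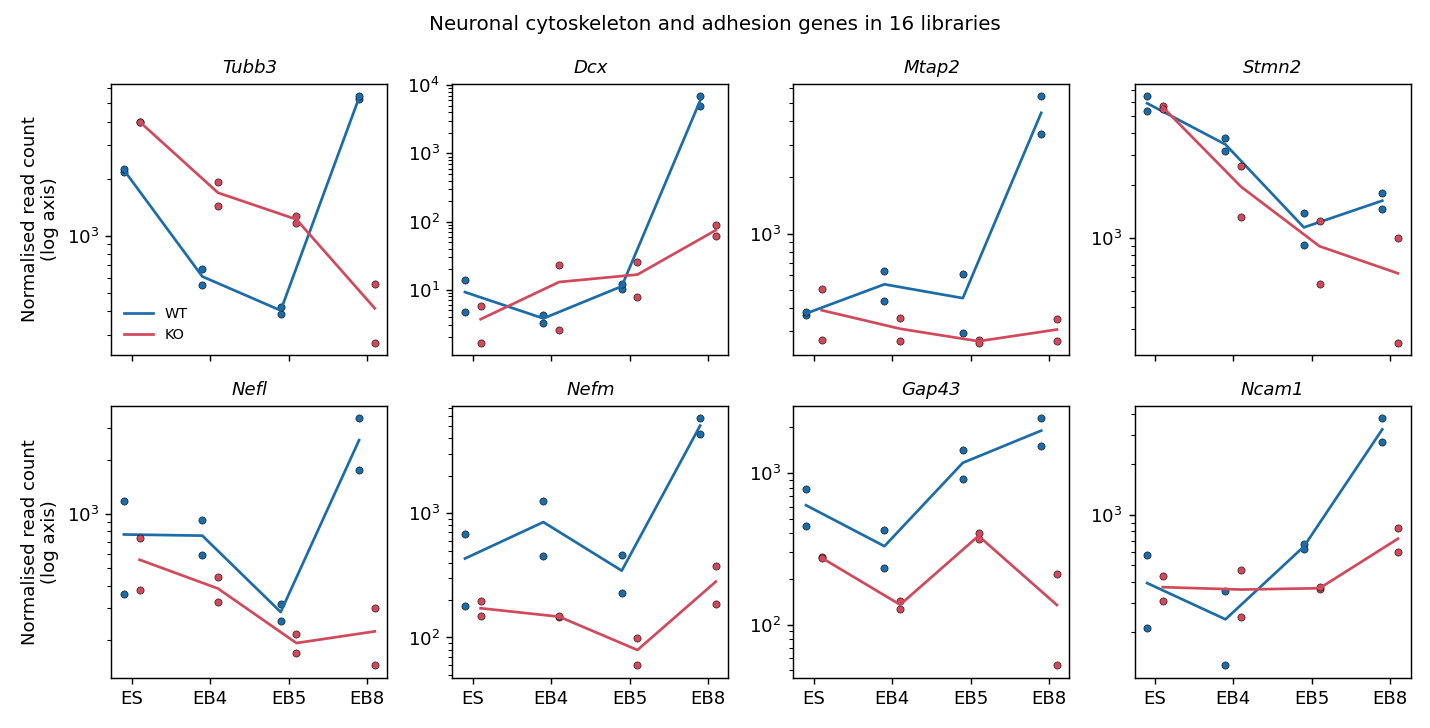
Normalised read counts (log axis) of the 8 genes at ES, EB4, EB5 and EB8. Points are single libraries, lines join the means of 2 libraries of WT and of KO. The WT lines of 6 genes climb steeply from EB5 to EB8, and at EB8 every KO point lies below both WT points.

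Tubb3 was the gene whose order between genotypes turned over. In WT its normalised read count was 2181 and 2263 at ES, 667 and 550.1 at EB4, 386 and 419 at EB5, and 5245 and 5469.6 at EB8. In KO it was 4005 and 3991 at ES, 1439 and 1932 at EB4, 1168 and 1270.3 at EB5, and 555 and 272 at EB8. The KO libraries were thus the higher pair at the first 3 stages and the lower pair at EB8, with no overlap at any stage. The log2 change in KO was 0.85 at ES (limma adjusted p = 0.230), 1.46 ± 0.267 (SE) at EB4 (adjusted p = 0.0127), 1.60 at EB5 (adjusted p = 0.0128) and -3.78 ± 0.267 (SE) at EB8 (adjusted p = 1.01e-05). Tubb3 was therefore 2.75-fold and 3.02-fold higher in KO than in WT at EB4 and EB5, and the 1.80-fold difference at ES did not pass. From ES to EB5 its level went down in both genotypes. At EB4 the call was lost with the compared groups alone or without WT EB4 replicate 2 or KO EB4 replicate 2, and at EB5 it was lost without WT EB5 replicate 1, WT EB5 replicate 2 or KO EB5 replicate 2 (adjusted p 0.0222 to 0.146 at EB4 over the replicates left out). Ordered by level, WT EB8, KO ES, WT ES, KO EB4, KO EB5 and WT EB4 followed each other without overlap, and the last groups (WT EB4, KO EB8 and WT EB5) overlapped as neighbours.

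Dcx, the marker of newly born neurons, was close to silent everywhere but at EB8. In WT its normalised read count was 13.7 and 4.78 at ES, 3.29 and 4.29 at EB4, 10.4 and 12.1 at EB5, and 4946 and 6972 at EB8. In KO it was 1.66 and 5.72 at ES, 23.4 and 2.55 at EB4, 25.6 and 7.76 at EB5, and 61.2 and 88.4 at EB8. The KO EB8 pair stood above every earlier library and far below the WT EB8 pair: its mean of 74.8 was 1.26% of the WT mean of 5959. The log2 change at EB8 was -6.30 ± 0.860 (SE, limma adjusted p = 0.000445). In reads, the KO EB8 libraries held 58 and 83 and the WT EB8 libraries 4710 and 6585, while WT EB4 replicate 1, KO ES replicate 1 and KO EB4 replicate 2 held 3 or fewer. Before EB8 the libraries of the genotypes overlapped at each stage and no difference passed.

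Mtap2, the microtubule-associated protein of dendrites, stood below its WT EB8 level in every other group. In WT its normalised read count was 368 and 379 at ES, 633 and 436 at EB4, 609 and 293 at EB5, and 3409 and 5461 at EB8. In KO it was 507 and 269 at ES, 353 and 265 at EB4, 270.2 and 259.9 at EB5, and 348 and 264 at EB8. All 8 KO libraries thus lay between 259.9 and 507, and the WT EB8 pair stood alone above the other 14 libraries. The log2 change at EB8 was -3.83 ± 0.387 (SE, limma adjusted p = 7.38e-05).

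Stmn2, the growth cone stathmin, had its highest level in undifferentiated cells, while the other 7 genes had theirs in WT EB8. In WT its normalised read count was 5303 and 6491 at ES, 3132 and 3719.8 at EB4, 1391 and 907 at EB5, and 1468 and 1799 at EB8. In KO it was 5702 and 5503 at ES, 1324 and 2597 at EB4, 546 and 1246 at EB5, and 251 and 1003 at EB8. The genotypes overlapped at ES and EB5, and at EB8 the KO pair was below the WT pair but far apart within itself. The log2 change at EB8 was -1.69 ± 0.545 (SE, limma adjusted p = 0.0417), the least certain of the 8. That call was lost in 8 of 15 alternatives, among them upper-quartile and quantile scaling, edgeR, and leaving out WT EB8 replicate 1, WT EB8 replicate 2 or KO EB8 replicate 1 (log2 change -2.69 to -0.69 over the replicates left out).

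The neurofilament genes Nefl and Nefm were measured in every library and were highest in WT EB8. In WT the normalised read count of Nefl was 1179.6 and 359 at ES, 922 and 594 at EB4, 317 and 255 at EB5, and 1745 and 3379.6 at EB8. In KO it stood at 736 and 379, 445 and 327, 169 and 216, and 302 and 145 at the same stages. The WT EB8 pair lay above all other libraries, and the genotypes overlapped only at ES. In WT that of Nefm was 684 and 179 at ES, 1242 and 453 at EB4, 463 and 226 at EB5, and 4337 and 5774 at EB8. In KO it stood at 195 and 149, 145 and 149, 59.7 and 98.9, and 378 and 185. WT replicate 1 was the higher of its pair at ES, EB4 and EB5, and KO was below both WT libraries at EB4, EB5 and EB8. At EB8 the log2 change was -3.53 ± 0.548 (SE, limma adjusted p = 0.000885) for Nefl and -4.24 ± 0.626 (SE, adjusted p = 0.000676) for Nefm. Nefm also fell at EB4, 5.07-fold (log2 change -2.34 ± 0.626, adjusted p = 0.0471), a call lost in 8 of 15 alternatives, while its log2 change at EB5 of -2.06 did not pass (adjusted p = 0.0843) but was called with DESeq2 (adjusted p = 0.00901) and with a block on the replicate number within each genotype (limma adjusted p = 0.0274).

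Gap43, the growth cone protein, was below WT in Taf4a-/- cells at every stage by level, and with limma the difference passed at EB8. In WT its normalised read count was 778 and 446 at ES, 236 and 421 at EB4, 1417 and 915 at EB5, and 2286 and 1515 at EB8. In KO it was 277 and 273 at ES, 127 and 143 at EB4, 369 and 399.5 at EB5, and 53.8 and 215 at EB8. The pairs did not overlap at any of the 4 stages, and in KO the EB8 libraries lay below the EB5 libraries where in WT they lay above. The log2 change was -1.22 at EB4 (limma adjusted p = 0.192), -1.57 at EB5 (adjusted p = 0.114, called with DESeq2 at an adjusted p of 0.0224) and -4.10 ± 0.526 (SE, adjusted p = 0.000307) at EB8.

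Ncam1, the adhesion molecule, was with Dcx the member whose KO EB8 libraries both lay above every earlier KO library. In WT its normalised read count was 212 and 573 at ES, 127 and 351 at EB4, 667 and 629 at EB5, and 2708 and 3751 at EB8. In KO it was 307 and 435 at ES, 248 and 471 at EB4, 361 and 370.4 at EB5, and 602 and 840.5 at EB8. The genotypes overlapped at ES and EB4 and separated at EB5 and EB8, and the KO EB8 pair overlapped the WT EB5 pair. The log2 change at EB8 was -2.16 ± 0.510 (SE, limma adjusted p = 0.00985), and the call was lost without WT EB8 replicate 2 or KO EB8 replicate 1 (adjusted p up to 0.0754).

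**Figure D2:**
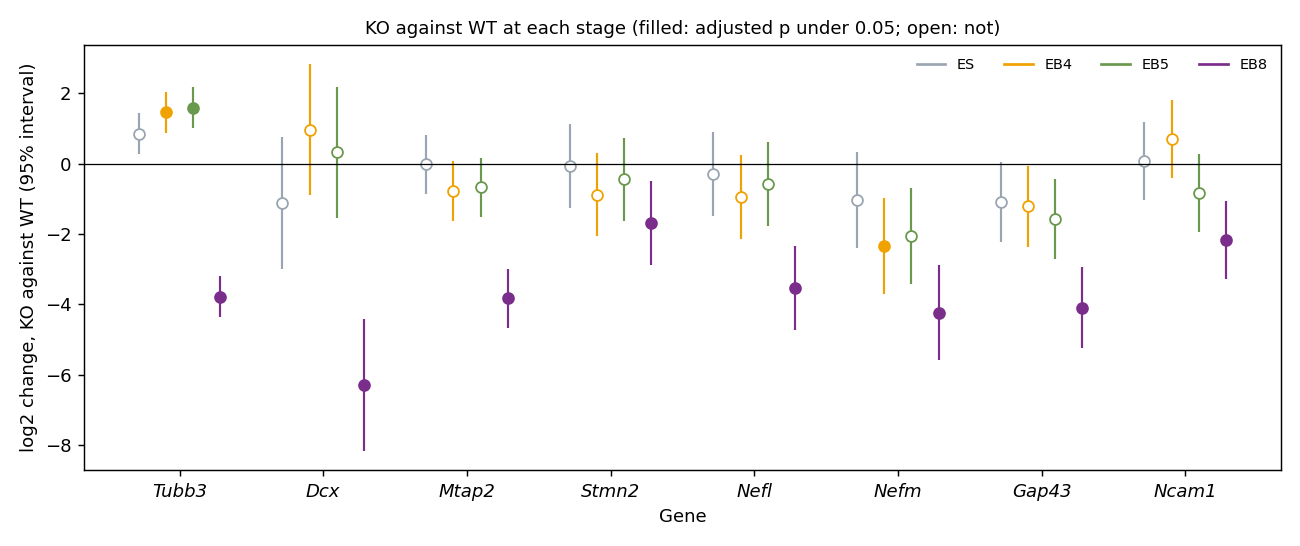
Log2 change of KO against WT for the 8 genes at ES, EB4, EB5 and EB8, with 95% intervals from the limma fit over 16 libraries. Filled points have an adjusted p under 0.05: Tubb3 above 0 at EB4 and EB5, Nefm below 0 at EB4, and all 8 below 0 at EB8, from -1.69 to -6.30.

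Before EB8 few members passed the test between genotypes, and with 2 libraries a group a difference that did not pass is not shown to be absent. At ES none of the 8 passed, nor did any other gene (0.00% of all tested genes with limma, with 1846 genes at an unadjusted p under 0.05, 0 genes by edgeR and 476 by DESeq2, none of them a member). By levels alone, at ES Tubb3 was higher in KO and Gap43 lower with no overlap and the other 6 overlapped, where 19.0% of all genes were higher and 20.7% lower without overlap. At EB4, 1 member was higher in KO than in WT (Tubb3) and 1 lower (Nefm) where 6.12% of all genes passed, 2.75% higher and 3.37% lower. At EB5, 1 member was higher (Tubb3) and none lower where 4.34% of all genes passed, 2.17% higher and 2.17% lower. Without overlap, 5 members were lower at EB4 (Mtap2, Stmn2, Nefl, Nefm and Gap43) and 5 at EB5 (Mtap2, Nefl, Nefm, Gap43 and Ncam1), beside 26.6% and 28.1% of all genes, and Tubb3 was higher at both stages, beside 25.3% and 26.7%. The median log2 change of the 8 was -0.18 at ES, -0.83 at EB4 and -0.62 at EB5, with the median of all genes between -0.01 and -0.00.

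Within WT cells 6 of the 8 genes rose in the last interval, from EB5 to EB8, and none in an earlier interval with limma. From ES to EB4 Tubb3 fell (log2 change -1.87, limma adjusted p = 0.00174), a call lost with the compared groups alone, and no other member passed, where 16.5% of all genes passed, 8.98% higher and 7.57% lower. The level of chromosome 8, which carries Tubb3, was -0.001 in WT ES replicate 1 and 0.38 in WT EB4 replicate 1. Its part in this change was not tested. From EB4 to EB5 none of the 8 passed with limma or edgeR and 2 passed with DESeq2 (Stmn2 lower, adjusted p = 0.0434, and Gap43 higher, adjusted p = 0.00816), where 3.73% of all genes passed with limma, 2.59% higher and 1.14% lower. In that interval 5 members had an unadjusted p under 0.05: Gap43 (log2 change 1.85, adjusted p = 0.0831), Ncam1 (1.61, adjusted p = 0.123), Stmn2 (-1.60, adjusted p = 0.157), Nefl (-1.38, adjusted p = 0.246) and Tubb3 (-0.59, adjusted p = 0.326). With a block on the replicate number within each genotype, Ncam1 (limma adjusted p = 0.0223) and Stmn2 (adjusted p = 0.0310) were called in that interval. From EB5 to EB8, 6 of the 8 rose where 10.4% of all genes passed, 5.82% higher and 4.62% lower: Tubb3 13.3-fold, Dcx 482-fold, Mtap2 10.2-fold, Nefl 8.52-fold, Nefm 15.4-fold and Ncam1 4.91-fold. The adjusted p was 2.45e-05 for Tubb3, 0.000106 for Dcx, 0.000309 for Mtap2, 0.00413 for Nefl, 0.00223 for Nefm and 0.0138 for Ncam1. Stmn2 (adjusted p = 0.608) and Gap43 (adjusted p = 0.456), the growth cone pair, did not pass. The fold of Dcx rests on 11 and 11 reads at WT EB5. The calls of Nefl (without WT EB8 replicate 2, adjusted p = 0.0503) and of Ncam1 (without WT EB5 replicate 1, WT EB5 replicate 2 or WT EB8 replicate 2) were lost with 1 library left out.

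Within Taf4a-/- cells no member rose in any interval with limma. From ES to EB4 Tubb3 fell (log2 change -1.26, limma adjusted p = 0.0284, lost in 6 alternatives), where 3.50% of all genes passed, 2.51% higher and 0.992% lower, and Stmn2 did not pass (log2 change -1.59, adjusted p = 0.118) but was called lower with DESeq2 (adjusted p = 0.0392) and with the block within each genotype (limma adjusted p = 0.0298). From EB4 to EB5 none of the 8 passed with limma, edgeR or DESeq2 and 1 had an unadjusted p under 0.05, Gap43 (log2 change 1.502, adjusted p = 0.173), where 2.51% of all genes passed, 1.82% higher and 0.695% lower. From EB5 to EB8 Tubb3 fell again, 3.13-fold (log2 change -1.65, adjusted p = 0.0186), where 0.738% of all genes passed, 0.428% higher and 0.310% lower. That call was lost with the compared groups alone or without KO EB5 replicate 1, KO EB5 replicate 2 or KO EB8 replicate 2. Dcx did not pass (log2 change 2.29, adjusted p = 0.268) and was called higher with DESeq2 alone (2.16, DESeq2 adjusted p = 0.0262). The values of Nefm (1.77, adjusted p = 0.240) and Gap43 (-1.82, adjusted p = 0.146) did not pass, and Gap43 was called lower without KO EB8 replicate 2 (-2.81, limma adjusted p = 0.0339). The median log2 change of the 8 from EB5 to EB8 was 0.16 in KO and 3.22 in WT.

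**Figure D3:**
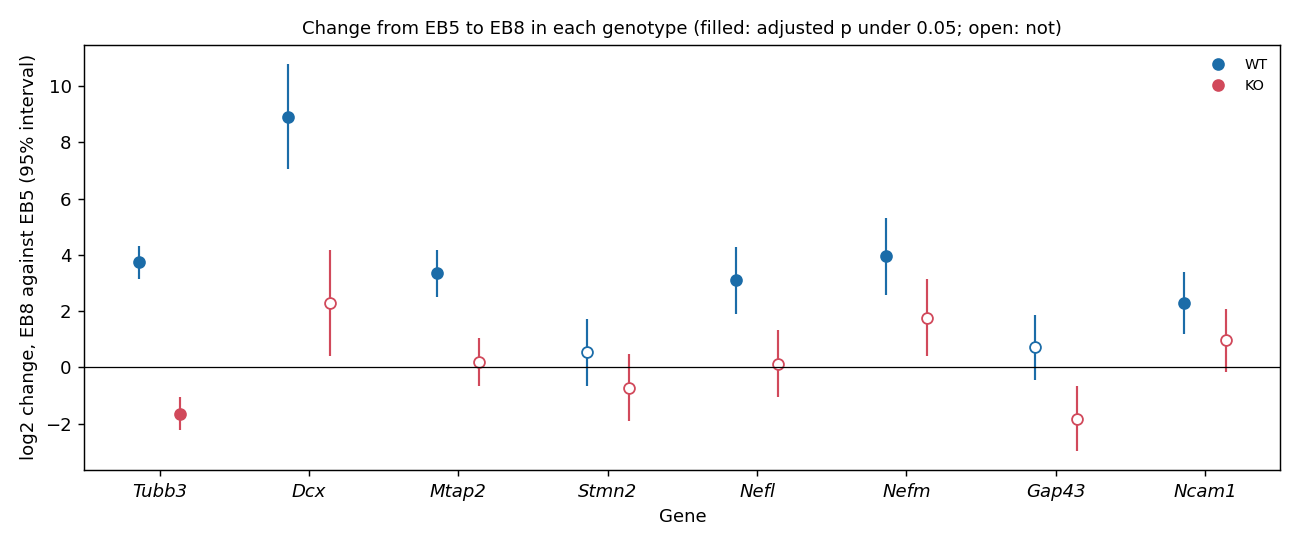
Log2 change from EB5 to EB8 of the 8 genes in WT and in KO, with 95% intervals from the limma fit. Tubb3 stands at 3.73 in WT and -1.65 in KO, and Dcx at 8.91 in WT and 2.29 in KO, while the intervals of Stmn2, Nefm and Ncam1 overlap between the genotypes.

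Whether the genotypes changed by different amounts was tested with an interaction term in the same fit. From EB5 to EB8 the change of Tubb3 differed by -5.38 ± 0.377 on the log2 scale (SE, limma adjusted p = 8.54e-05), the lowest p of the 16124 genes. Dcx differed by -6.62 ± 1.22 (adjusted p = 0.0287) and Mtap2 by -3.15 ± 0.547 (adjusted p = 0.0213), where 0.781% of all genes passed, 0.0992% higher and 0.682% lower in KO. The other 5 did not pass: Nefl -2.96 (adjusted p = 0.126), Gap43 -2.53 (0.179), Nefm -2.18 (0.415), Ncam1 -1.34 (0.625) and Stmn2 -1.25 (0.716). Of these, Nefl was called with DESeq2 (-2.95, DESeq2 adjusted p = 0.00802), which called 4 members in all, and Gap43 without KO EB8 replicate 2 (-3.52, limma adjusted p = 0.0349). The difference of Tubb3 passed in every alternative, that of Dcx was lost with a pseudocount of 0.1 and with any 1 of the 8 libraries left out, and that of Mtap2 was lost without WT EB5 replicate 2, WT EB8 replicate 2, KO EB5 replicate 1, KO EB5 replicate 2 or KO EB8 replicate 2. Of all calls 12.7% were higher in KO, beside 25.6% with quantile normalisation and 27.5% with DESeq2. For the earlier intervals no gene passed with limma or edgeR (0.00% of all tested genes, 1129 and 478 genes at an unadjusted p under 0.05, 112 and 4 genes by DESeq2), and no member had an unadjusted p under 0.05. The comparisons at EB8 share their WT libraries with the WT time course, so they are not independent of each other.

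Divided by exon length, the mixture of these transcripts changed with stage and genotype. In WT ES cells Stmn2 had the highest level of the 8, 3097 normalised counts per kb of exon, above Tubb3 at 1189 and Gap43 at 402, and KO ES cells had the same order on top, Stmn2 at 2942 and Tubb3 at 2140.2. In WT EB8 Tubb3 led with 2868 per kb, followed by Gap43 at 1248, Nefm at 874, Stmn2 at 858, Nefl at 758, Dcx at 471, Ncam1 at 319 and Mtap2 at 269.6. In KO EB8 the order differed between the libraries: Tubb3 led with 297 per kb in replicate 1, above Stmn2 at 132, and Stmn2 led with 527 in replicate 2, above Tubb3 at 145. Dcx was last in both, at 4.84 and 6.99. The level summed over the 8 genes was 7212 and 8119.9 per kb for the WT EB8 libraries against 704 and 995 for the KO EB8 libraries, below every other pair. Before differentiation the sums of the genotypes were close, 4975 and 5130.0 for WT ES against 5633 and 5403 for KO ES. Gap43 made up 41.7% ± 2.30 of the sum at EB5 for WT and 17.1% ± 2.78 for KO (SD, n = 2). Stmn2 made up 11.2% ± 0.668 at EB8 for WT and 35.9% ± 24.2 for KO (SD, n = 2), with the KO EB8 libraries far apart. With the longest transcript in place of all exons, the levels in WT EB8 were higher for Nefm (1374 per kb), Mtap2 (709), Dcx (657) and Ncam1 (488), and Nefm passed Gap43 in the order.

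**Figure D4:**
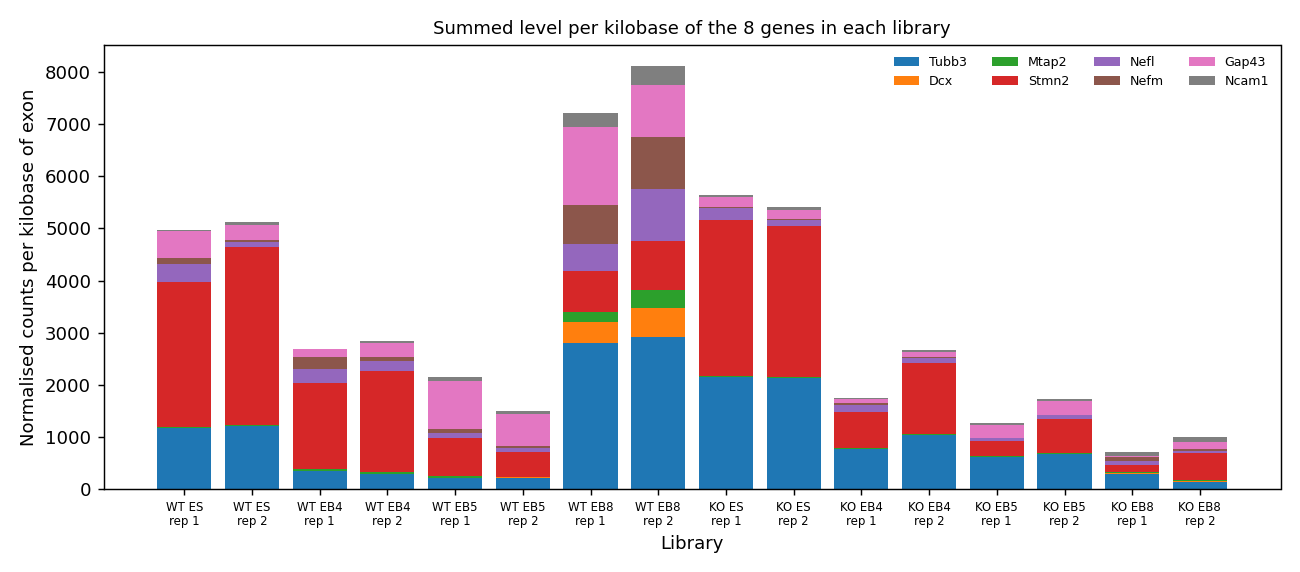
Normalised counts per kb of exon in the 16 libraries, stacked over the 8 genes and grouped by genotype and stage. The WT EB8 bars are the tallest, at 7212 and 8119.9, with Tubb3 as their largest layer, and the KO EB8 bars are the shortest, at 704 and 995.

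The genes that work beside these 8 were counted at EB8 in lists of textbook members. Of 5 other tubulins 3 fell in KO, Tubb2b (log2 change -2.14), Tuba1a (-1.68) and Tubb5 (-1.06), and Tubb2a had a log2 change of 0.29 that did not pass (limma adjusted p = 0.613). Of 9 other microtubule-associated proteins 7 fell, with a list median of -2.37. Stmn3, a stathmin like Stmn2, had the lowest value (-5.73) and had a normalised read count of 429 and 878 in the WT libraries against 9.50 and 11.7 in the KO libraries. Dclk1, a doublecortin-like kinase, fell by 4.10, the broadly expressed stathmin Stmn1 by 1.19, and Dclk2 (-0.97) did not pass. Of the other 3 intermediate filament genes of neurons Ina, which encodes alpha-internexin, fell by 4.45 (4131 and 4447 in the WT libraries, 319 and 119 in the KO libraries), while Nefh, the heavy neurofilament subunit (0.55), and Prph, the peripherin of peripheral neurons (1.60, adjusted p = 0.102, called higher with DESeq2 alone), did not pass. The filament list thus held values on both sides of 0, beside Nefl and Nefm, which both fell.

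Growth cone, adhesion and transport genes fell in most cases. All 9 other growth cone genes fell, with a median log2 change of -2.96, among them the collapsin response mediators Dpysl4 (-4.65) and Crmp1 (-3.82), the actin-binding drebrin gene Dbn1 (-1.92) and Basp1 (-1.19), another membrane protein of growth cones. Of 14 other adhesion genes, 9 fell and 5 did not pass, with a median of -2.15. The 14 include St8sia2 (-2.81) and St8sia4 (-1.15, which did not pass), genes of enzymes that modify Ncam1. The L1-family gene Chl1 (-5.32) and the contactin gene Cntn2 (-4.998) had the lowest values, and Alcam (1.13) and Dscam (-0.52) the highest, neither of which passed. All 5 axonal kinesins fell, Kif5c (-3.15) and Kif5a (-1.97) by the most and Kif3c (-1.28) and Kif1a (-0.98) by the least. Over the alternatives 3 to 4 tubulins, 5 to 7 microtubule-associated proteins, 7 to 9 growth cone genes, 6 to 9 adhesion genes and 4 to 5 kinesins were called lower. At EB4 the growth cone list held 1 higher and 2 lower calls, the adhesion list 3 lower and the kinesin list 2 lower, and the tubulins and microtubule-associated proteins held none. At EB5 3 growth cone genes, 2 adhesion genes, 1 kinesin and 1 microtubule-associated protein fell. The share of all genes called lower was 3.37% at EB4, 2.17% at EB5 and 12.5% at EB8.

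**Figure D5:**
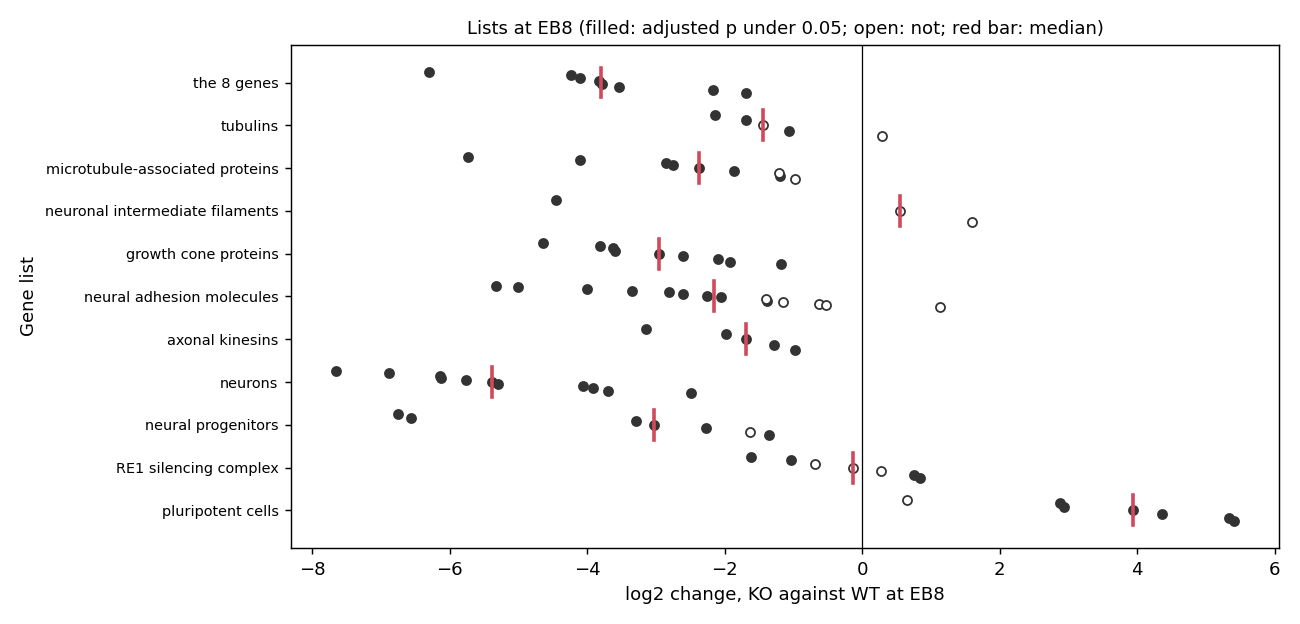
Log2 change of KO against WT at EB8 for the 8 genes and 10 lists, with 1 point per tested gene, filled where the adjusted p is under 0.05, and a red bar at each list's median. The median is -3.80 for the 8 genes, -5.38 for the list of neuronal genes and 3.94 for the list of pluripotency genes.

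Markers of cell types moved with the 8 genes at EB8, where 10.4% of all tested genes passed higher and 12.5% lower. All 11 other neuronal genes fell (10 to 11 over the alternatives), with a median log2 change of -5.38 and values from -7.65 for Neurod4, a proneural factor whose KO libraries stood at 9.50 and 1.07 (the second at no more than 3 reads), to -2.49 for Elavl2, an RNA-binding protein of neurons. Myt1, a zinc-finger factor of neural cells, had a value of -6.89 and Syp, a synaptic vesicle protein, -3.70. Their summed normalised read count was 11439 and 13510.0 in the WT libraries against 893 and 496 in the KO libraries, where 3 of the 11 were at no more than 3 reads in replicate 2. Of 7 neural progenitor genes 6 fell, with a median of -3.03, Hes5 (-6.57) and Notch1 (-1.35), a target and a receptor of Notch signalling, among them, and Nes did not pass (-1.63, limma adjusted p = 0.0582). Fabp7, of radial glia, stood at 354 and 281 in the WT libraries against 3.17 and 1.07 in the KO libraries, no more than 3 reads in each KO library. The summed level of the progenitor list was 51525 and 48261 in the WT pair against 10520 and 10696 in the KO pair.

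Of 7 pluripotency genes 6 were higher in KO than in WT at EB8, with a median log2 change of 3.94. Nanog (5.41), Dppa5a (5.33) and Tdgf1 (2.88) were among them, and Klf4 did not pass (0.65). Nanog stood at 118 and 313 in the WT pair against 7989 and 8408 in the KO pair. The summed level of the list was 1382 and 1766 in the WT pair against 24620 and 27777 in the KO pair. The KO libraries labelled neural precursor cells thus carried higher levels of pluripotency genes than the WT libraries. In KO the sum was still lower at EB8 than at ES, where it was 118539 and 128937. Of 7 tested feeder fibroblast genes none passed at EB8, with 1 at an unadjusted p under 0.05. Dcn stood at the threshold (log2 change -2.29, limma adjusted p = 0.05). Among the alternatives, Dcn was called lower with a pseudocount of 5, quantile normalisation, either replicate block or DESeq2. Pdgfrb (0.89) was called higher with only the groups compared. The summed level of the list (8 genes, 7 tested) was 2409 and 3131 in the WT pair against 1487 and 3755 in the KO pair. At ES, where cells were grown on feeders, the list's sum was 1059 and 2733 in the WT pair against 213 and 505 in the KO pair, with a median log2 change of -2.50 and none of 7 passing. Whether feeder cells were left in the ES samples taken for RNA is not stated. Of the lists for other cells, 1 of 6 glial and neural crest genes rose (Sox10, 3.08) and 1 fell (Foxd3, -3.09), and 2 of 5 heart and muscle genes and 2 of 5 endoderm genes fell. Of all tested genes 10.4% passed higher and 12.5% lower. With a block on the replicate number within each genotype, 2 heart and muscle genes and 2 glial and neural crest genes were called higher. Over the alternatives 0 to 2 heart and muscle genes (0 without any 1 of the 4 EB8 libraries), 1 to 2 endoderm genes and 0 to 1 glial and neural crest genes were called lower. The part of cell composition in the changes of the 8 genes was not tested.

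The RE1 silencing complex represses neuronal genes outside neurons and was listed for that reason. Of its 7 genes, 2 rose and 2 fell at EB8, with a list median of -0.13, where 10.4% of all tested genes passed higher and 12.5% lower. Rest, which binds the DNA element, had a normalised read count of 2338 and 2428 in the WT pair against 4444 and 4135 in the KO pair (log2 change 0.85, limma adjusted p = 0.00329). The deacetylase gene Hdac1 rose as well (0.76), and the corepressor gene Rcor2 (-1.61) and the deacetylase gene Hdac2 (-1.03) fell.

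The 8 genes did not follow a single pattern. Over the 16 libraries, Pearson's r of log2 levels between members ran, over 28 pairs, from -0.368 for Dcx and Stmn2 to 0.905 for Mtap2 and Nefm. It was 0.871 for Nefl and Nefm, which share exon bases, and -0.258 for Stmn2 and Ncam1. Among the other tested genes, the patterns most like that of Dcx were Pou3f3 (r = 0.969) and Ebf3 (r = 0.969), both transcription factors of the nervous system. Those most like Mtap2 were Ppp1r17 (r = 0.951) and Pax5 (r = 0.948), and Pax5 (r = 0.921) was also among the nearest to Nefm, with Unc79 (r = 0.945). Ppp1r17 and Pax5 were tested only through WT EB8. Ppp1r17 had a normalised read count of 360 and 288 there and at most 1.59 elsewhere. For Pax5 it was 161 and 235 there and at most 14.2 elsewhere. Pou3f3 likewise stood at 2289 and 2234 in WT EB8 and at most 84.4 elsewhere. The r values of these genes rest largely on that pair of libraries. Nefl was nearest to Igsf9 (r = 0.942) and Dll3 (r = 0.916), Ncam1 to Zfp536 (r = 0.946) and Os9 (r = 0.934), and Tubb3 to Slc29a4 (r = 0.923) and Ckb (r = 0.892). Stmn2 was nearest to Srsf11 (r = 0.915) and Rpsa-ps10 (r = 0.912), and Gap43 to Zfp326 (r = 0.924) and Wdr48 (r = 0.870). Rpsa-ps10 was low, with normalised read counts of 3.17 to 19.1. Pearson's r does not measure the size of a change. Zfp326 ran from 926 to 1675 and Wdr48 from 1880 to 2551, while Gap43 ran from 53.8 to 2286. These values describe 16 libraries that share lines, stages and depth, and all ES libraries were the deeper ones.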

How the data were processed

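RNA was measured in 16 libraries, 2 for each of 8 groups of genotype and stage named in the labels. According to the methods and the submitters' processing notes, poly-A RNA was prepared with a TruSeq RNA v2 kit, sequenced as single-end reads on a GAIIx, processed with CASAVA, aligned to mm9 with TopHat2 2.0.10, counted with HTSeq and normalised with DESeq2 1.0.19. The annotation release and the strand setting are not given in the sources used here. The deposited values are a normalised signal, read counts that the authors divided by DESeq2 size factors: 100.0% of them were whole multiples of a step within a tolerance of 0.001, so the reads could be recovered and their sum per library gave the depth.

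The test was limma 3.58.1 (R 4.3.3) on log2(normalised count + 1), with 8 group means over 16 libraries, a trended prior and Benjamini-Hochberg adjustment over the 16124 genes with a mean of at least 10. The log2 scale with this pseudocount understates changes of low genes. Before use, the script was tested on simulated data with known changes. The alternatives changed the pseudocount (0.1 or 5) or the filter (none, or 50 in place of 10), and further ones were upper-quartile and quantile scaling, a block on the replicate number, over both genotypes or (chosen after seeing the data) within each, only the groups compared, each library left out, and edgeR 4.0.16 and DESeq2 1.42.0 on recovered reads. Levels per kb used the union of annotated exons. The members and lists were chosen with earlier results of these data known. Besides the members, the text names from each list the 2 lowest and 2 highest changes at EB8, Taf4a, and for each member the 2 genes with the highest Pearson's r. St8sia2 and St8sia4 are also named, as genes of enzymes in the adhesion list. Intervals and p-values rest on the spread between 2 libraries a group, shared over the groups by the fit.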

Additional observations from a re-analysis of the deposited data

Results flagged for a closer look

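The change from EB5 to EB8 differed between WT and Taf4a-/- cells, by the interaction term in limma, for 3 of the 8 genes. The difference, KO minus WT on the log2 scale, was -5.38 for Tubb3, -6.62 for Dcx and -3.15 for Mtap2. Tubb3 rose in WT and fell in KO, with both libraries of each genotype moving that way, whereas Dcx and Mtap2 rose in WT and did not pass in KO with limma. A test for 1 library far from the rest of its group needs at least 4 libraries and was not run here.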

How the results depend on the processing

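At EB8, Stmn2 and Ncam1 were the members that lost a call under some alternative. For the 42 member results with an unadjusted p under 0.05, at EB8 between genotypes or in the EB5 to EB8 genotype difference, 593 of 662 settings kept direction and call, 53 lost the call, 16 gained it and 0 turned. Over all 104 member results 55 of 1656 settings turned the direction, in 29 results of which 0 were called. At EB4, 2 members were called, against 1 with a pseudocount of 0.1, no filter or quantile normalisation, 0 with only the groups compared and 0 to 1 with 1 library left out. At EB5, 1 was called, against 2 with either replicate block, 3 with DESeq2 and 0 to 1 with 1 library left out. In WT from ES to EB4, 1 was called and 0 with only the groups compared, and from EB4 to EB5, 0 were called, against 1 with the replicate block, 2 with the block within each genotype, 2 with DESeq2 and 0 to 1 with 1 library left out. In KO from ES to EB4, 1 was called, against 0 with quantile normalisation or only the groups compared, 2 with DESeq2 or the block within each genotype and 0 with 1 library left out. In KO from EB5 to EB8, 1 was called, against 0 with only the groups compared, 2 with DESeq2 and 0 to 1 with 1 library left out. The genotype difference from EB5 to EB8 had 3, and 4 with DESeq2 and 1 to 2 with 1 library left out. Among list genes at EB8, Tubb2a turned to -0.047 without KO EB8 replicate 2 (-0.047 to 0.63 over the libraries left out) and Dscam to 0.052 without KO EB8 replicate 1 (-1.10 to 0.052), and neither was called. Fits on single groups or with a library left out hold fewer samples, and otherwise the cause was not tested.

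Over all genes, the count of 0 at ES became 8 or 16 with pseudocounts of 0.1 or 5, 1 with no filter, 16 with a mean of at least 50, 19 with upper-quartile scaling, 18 with the block and 476 with DESeq2. With only the groups compared it fell from 986 to 0 at EB4, from 700 to 72 at EB5, from 2668 to 0 for WT from ES to EB4, from 564 to 23 for KO from ES to EB4 and from 119 to 1 for KO from EB5 to EB8. With DESeq2 it rose to 2077 at EB4, 1719 at EB5, 1690 for KO from ES to EB4 and 661 for KO from EB5 to EB8, and the genotype difference from EB5 to EB8 went from 126 to 488 (225 with a pseudocount of 5). From EB4 to EB5 the counts of 601 in WT and 405 in KO became 170 and 91 with only the groups compared and 1089 and 1017 with DESeq2. With no filter the count was 609 at EB4, 447 at EB5 and 310 for KO from ES to EB4, which had 361 with quantile normalisation. For KO from EB5 to EB8 it was 76 and 183 with pseudocounts of 0.1 and 5 and 208 with quantile normalisation. The genotype difference from ES to EB4 had 0 genes, against 8 with the block and 112 with DESeq2, and that from EB4 to EB5 had 0, against 3 with a pseudocount of 5 and 4 with DESeq2. With 1 library left out the count was 0 to 121 at ES (121 without WT ES replicate 1), 0 to 753 at EB4, 0 to 525 at EB5, 1289 to 2180 for WT and 2 to 81 for KO from ES to EB4, 197 to 536 for WT and 132 to 204 for KO from EB4 to EB5, 1907 to 2408 at EB8 in place of 3697, 556 to 1203 for WT from EB5 to EB8 in place of 1683, 4 to 47 for KO from EB5 to EB8 and 13 to 74 for the genotype difference from EB5 to EB8.

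The labels do not say what a replicate number shares. Differences between replicates correlated across genes between the genotypes at 0.335 at ES, -0.0575 at EB4, -0.209 at EB5 and -0.133 at EB8. Within a genotype they correlated at 0.523 to 0.605 between the WT EB stages, -0.179 to -0.0480 between WT ES and these, and 0.233 to 0.422 between the KO stages, a hint of sharing there. Those of WT ES also correlated with KO EB4 (0.281) and KO EB5 (0.368), and less with KO EB8 (0.0563). What the WT ES libraries share with the WT EB libraries was not tested. With the number as a block, Nefm at EB5 (limma adjusted p = 0.0482) and Ncam1 in WT from EB4 to EB5 (adjusted p = 0.0262) were also called. With the number as a block within each genotype, a paired fit chosen after seeing the data, no member call was lost, and calls over all genes became 66 at ES, 1985 at EB4, 1559 at EB5, 1291 for KO from ES to EB4, 917 for WT and 724 for KO from EB4 to EB5, 299 for KO from EB5 to EB8 and 227 for the genotype difference. With a group of 2 a library left out leaves 1 that is assumed to vary like the other groups.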
